A study of Homo sapiens with 26 samples.

Results

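The longest protein-coding genes expressed in TF-1 cells, an established human erythroleukemia line, lost transcript together after 5-azacytidine and were back near their vehicle level by the later harvest. The genes described are autosomal protein-coding genes whose annotated span, from the first exon start to the last exon end, exceeds 300 kb, and whose mean level over the 25 libraries used was at least 2 CPM, the read count scaled by the size of its library. The table holds 57773 genes, of which 10648 were autosomal, coding and at that level. Of these, 307 were longer than 300 kb, and 302 remained after 7 genes were left out by name, 5 of which met both limits. They were selected on annotated span and on this mean level, which includes treated and vehicle libraries alike, and the group was picked with results of these data already known, so the counts and medians below describe it. The other 10341 coding genes, of 300 kb or less and at the same level, are called shorter genes and are given for comparison.

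As background, RNA polymerase II copies a gene from end to end, introns included, before the finished transcript is released, so the longest genes take hours to transcribe and most of that work goes into intron sequence that is later removed. Long genes code for many cell adhesion, cytoskeletal and signalling proteins, and for transcription factors with several start sites. Some of them lie in common fragile sites, regions that break when DNA replication is slowed. 5-azacytidine is a cytidine analogue that enters RNA and DNA and traps DNA methyltransferases, which lowers methylation at CG dinucleotides.

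The clones carried either no functional allele of TET2 by label (TET2 -/-, called KO; clones F4 and A12) or both (TET2 +/+, called WT; clones A7 and C4). TET2 is an enzyme that oxidises 5-methylcytosine. Cultures received 200 nM 5-azacytidine (Aza) on 3 successive days, or DMSO alone, and RNA was taken ahead of the first dose and then 72 h and 264 h later. All 4 clones and all conditions are in batch 1 (20 libraries). Batch 2 adds 6 libraries of the KO clones without drug, whose pre-treatment pair also carries a DMSO label and was kept as a group of its own. The batch 1 library of F4 in DMSO at 72 h failed quality control by its label and was left out, so F4 has only a batch 2 vehicle at 72 h. All groups are 2 clones of 1 line. In the tests of Aza and of time a clone term takes out level differences between clones. Their p-values thus measure the spread that remains between these libraries. The direct tests of KO against WT have no clone term, so their p-values include the spread between these clones. In bulk RNA, fewer cells that express a gene and less of its RNA per cell cannot be told apart.

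These 4 promoters belong to the 2 genes of the set that fell most in KO at 72 h and the 2 that rose most among those passing the test. They are given because the treatment acts on CG dinucleotides, which are in capitals. The windows printed for these 4 genes do not separate by CG content into those that fell and those that rose. Each is the 250 bases before the RefSeq transcription start, 5′ to 3′, from build GRCh38.p14, whereas the counts are on hg19. CUX1 lies at chr7:101815757-101816006 on the plus strand, HDAC4 at chr2:239274782-239275031 on the minus strand, CD36 at chr7:80601957-80602206 and CPED1 at chr7:120988461-120988710, both on the plus strand. The table holds 1 start per gene, which was not matched to the ends of the counted rows. A window may thus belong to a start inside the gene and need not be the promoter of the full span.
CUX1: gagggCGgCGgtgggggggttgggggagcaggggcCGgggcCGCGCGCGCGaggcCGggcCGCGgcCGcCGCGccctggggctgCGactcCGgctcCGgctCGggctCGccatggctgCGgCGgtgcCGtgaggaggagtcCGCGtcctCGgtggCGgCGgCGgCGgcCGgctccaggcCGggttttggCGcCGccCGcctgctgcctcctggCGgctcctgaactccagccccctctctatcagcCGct
HDAC4: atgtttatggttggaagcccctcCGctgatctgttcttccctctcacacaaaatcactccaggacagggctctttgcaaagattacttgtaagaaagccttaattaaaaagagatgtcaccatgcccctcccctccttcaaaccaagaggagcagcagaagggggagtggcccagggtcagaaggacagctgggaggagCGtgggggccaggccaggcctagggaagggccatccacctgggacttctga
CD36: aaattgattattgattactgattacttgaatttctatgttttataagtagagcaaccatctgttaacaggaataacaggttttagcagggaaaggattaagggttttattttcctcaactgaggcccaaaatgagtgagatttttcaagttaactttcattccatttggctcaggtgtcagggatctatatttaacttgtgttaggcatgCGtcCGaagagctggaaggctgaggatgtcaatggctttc
CPED1: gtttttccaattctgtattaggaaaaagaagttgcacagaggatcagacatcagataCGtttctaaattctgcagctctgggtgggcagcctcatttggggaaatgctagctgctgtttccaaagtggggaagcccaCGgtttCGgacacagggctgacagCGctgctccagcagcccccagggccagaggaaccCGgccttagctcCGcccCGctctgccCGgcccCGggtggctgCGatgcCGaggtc
The printed bases hold 36 CG dinucleotides for CUX1, 2 for HDAC4, 2 for CD36 and 11 for CPED1. RefSeq gave a promoter for 247 of the 302 genes. Over the full window of 300 bases, from 250 before to 50 after the start, CG was searched by its letters, which read the same on both strands. At least 10 CG stood in 79.8% of the long genes' promoters, in 90.2% of those of the shorter genes and in 56.0% of all 27305 promoters in the table. The median was 27 CG for the long genes and 27 for the shorter ones. Among the long genes, 84.7% of the promoters of those called lower in both genotypes at 72 h held at least 10 CG, against 73.0% of those called lower in neither.

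The libraries held 24992192 to 40187322 counted reads with a median of 27477937, so that 3 counts, the floor used for detection, correspond to 0.0747 to 0.120 CPM. TET2 had a median of 32.2 CPM in KO and 28.9 CPM in WT libraries, and a count over all its exons does not check the genotype label. The WT libraries from before treatment go against their clone labels: their deviations correlated at -0.514 to -0.474 with those of later libraries of the same label, so the labels of A7 and C4 may be exchanged there, and the shared model takes them as given. Of 18 markers of TF-1 cells, 17 were detected, with a summed level of 2432 to 3366 CPM. CSF2RA, which lies in the region shared by chromosomes X and Y, was counted at 0, and whether it is expressed cannot be read from this count. Of the 17 tested, 11 were called higher and 1 lower in KO at 72 h of Aza, and 9 and 3 in WT. Of 13 lymphoid markers 6 stayed under 1 CPM in every library, MS4A1 was at 0, and the sum was 13.5 to 102 CPM. Of 14 monocyte and granulocyte markers 8 stayed under 1 CPM, FCN1 was at 0, and the sum was 86.7 to 116 CPM in Aza at 72 h and 122 to 157 CPM elsewhere. Of 19 markers of non-blood cells 12 stayed under 1 CPM, and the sum was 158 to 302 CPM. The part of these markers in the results below was not tested.

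The 302 genes spanned 300.2 kb to 2298 kb, with a median of 426 kb, and divided into 135 genes of 300 to 400 kb, 77 of 400 to 500 kb, 79 of 500 to 1000 kb and 11 of more than 1000 kb. They are long through their introns. Exons made up a median of 2.08% of the span, 9.10 kb in 25 merged exons, against 4.90 kb and 11 merged exons in the shorter genes. The giant muscle gene TTN, with 367 merged exons, had the largest exonic share at 38.8%. Their mean level was 2.03 to 313 CPM with a median of 20.5 CPM, against a median of 35.6 CPM for the shorter genes. Per kilobase of exon the level ran from 0.158 CPM for the extracellular matrix protein HMCN1 to 63.8 CPM for HBG2, a fetal globin gene. The HBG2 row spans 393 kb, whereas its median coding transcript in GENCODE release 29 spans 1.62 kb. In all, 8 genes were not longer than 300 kb in release 29: FIP1L1, EIF2B5, AVL9, HBG2, TASP1, PRR4, SLC25A26 and HSD17B12. In 36 of the 302 no annotated coding transcript of release 29 exceeds 300 kb.

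The limits of the choice cut through genes with similar and with different values. Just inside the span limit lay HSD17B12 (300.2 kb; log2 change in Aza at 72 h -0.07 in KO and -0.10 in WT) and KMT2C (301 kb; -0.76 and -0.55). Just outside lay JMJD1C (299 kb; -0.26 and -0.18) and PCBP3 (299 kb; 0.99 and 0.28). At the level limit LIMCH1 (2.03 CPM; -0.92 and -0.72) and ZBTB7C (2.09 CPM; 0.15 and 0.06) lay inside, and ASB3 (1.95 CPM; -0.28 and 0.07) and NALF1 (1.96 CPM; 0.58 and 0.11) outside.

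The 4 libraries harvested in Aza at 72 h stood below all 21 others in the level of the long genes. For each library, the deviation of each gene's log2 CPM from its mean over the 25 libraries was taken, and the median over the 302 genes was -0.34 in F4 and -0.38 in A12, and -0.45 in A7 and -0.49 in C4. In the other 21 libraries it lay between -0.02 and 0.19, so the groups did not overlap. Together the long genes took 0.826% to 0.845% of the counts in the KO libraries in Aza at 72 h and 0.795% to 0.798% in the WT ones. In all other libraries they took 1.05% to 1.23%. The shorter genes' median stayed between -0.02 and 0.06 in every library.

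**Figure D1:**
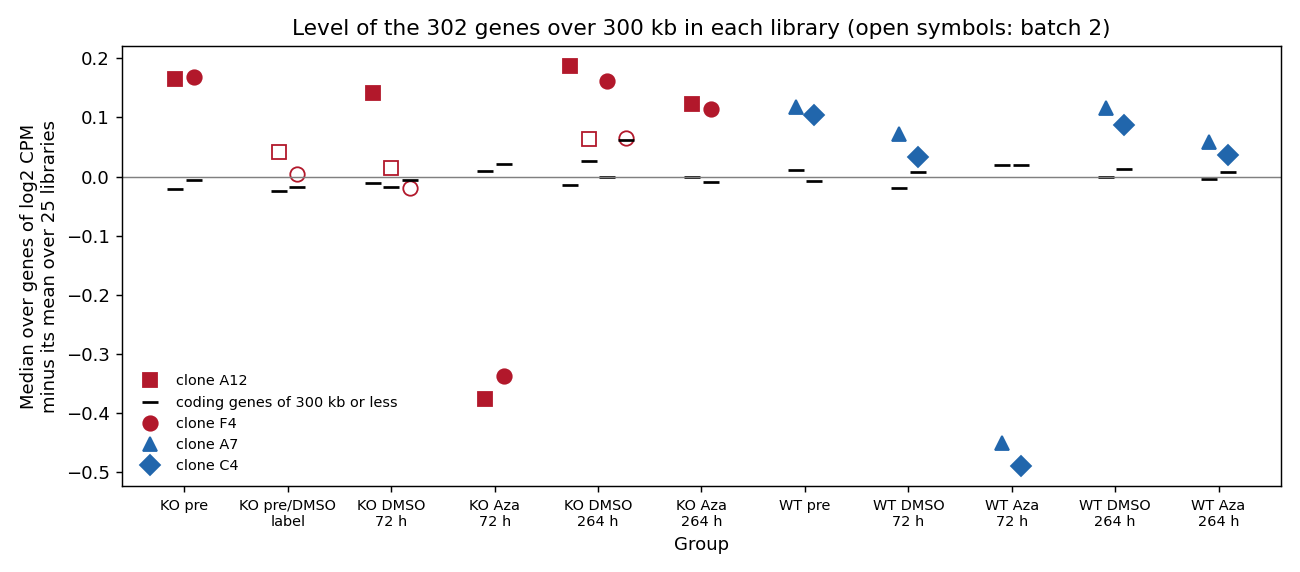
Median deviation of log2 CPM from the mean over 25 libraries (vertical axis) for the 302 genes over 300 kb, by group (horizontal axis), with 1 symbol per library, open for batch 2, and a dash for coding genes of 300 kb or less in the same library. The 4 libraries in Aza at 72 h lie between -0.49 and -0.34, below the range of -0.02 to 0.19 of the other 21.

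In the KO clones at 72 h of Aza, most of the long genes were lower than in DMSO and hardly any were higher. CUX1, a homeobox transcription factor, and HDAC4, a histone deacetylase, fell most, with CAMK1D, a calcium-dependent kinase, THRB, the thyroid hormone receptor beta, MAD1L1, a spindle checkpoint protein, and SYNE2, a giant protein of the nuclear envelope. The genes that rose were CD36, CPED1, CDH23, XYLT1, ITGA9, RUNX1 and BACH1. A gene is called changed at an adjusted p under 0.05 in edgeR's quasi-likelihood test over 18391 genes. By that rule 171 of the 302 were lower and 7 higher, where 8.47% of all genes tested were lower and 11.6% higher, and 10.3% and 16.3% of the shorter genes. The median log2 change was -0.48 for the long genes, 0.04 for the shorter ones and 0.01 for all genes tested. A called fall of 1 log2 unit or more was seen in 33, where 1.3% of all genes tested had one. Without clone A12, which leaves F4 with a vehicle of the other batch only, 50 were called lower and 0 higher by the same test. With the failed F4 vehicle put back, 92 were called lower.

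CUX1 (chromosome 7, 101458959 to 101927249, hg19) had 69.3 and 76.8 CPM before treatment in F4 and A12. In DMSO at 72 h it had 76.7 CPM in F4, and 74.0 and 80.6 CPM in the batch 1 and batch 2 libraries of A12. In Aza at 72 h it had 21.4 and 22.9 CPM. Both treated libraries thus lay far under all vehicle libraries, from 77.1 ± 3.30 (SD, n = 3) to 22.1 ± 1.08 CPM (n = 2), a log2 change of -1.82 (SE 0.09, adjusted p = 3.55e-12). HDAC4 (chromosome 2, 239969864 to 240323348) had 19.5, 21.0 and 22.6 CPM in the 3 vehicle libraries and 6.07 and 6.11 CPM in Aza. The groups did not overlap, with a log2 change of -1.69 (SE 0.12, adjusted p = 2.29e-10). MAD1L1 (chromosome 7, 1855429 to 2272878) had 47.2, 59.0 and 59.3 CPM in DMSO and 12.8 and 15.2 CPM in Aza (log2 -1.63, SE 0.10, adjusted p = 5.68e-11). Its vehicle level was higher in batch 2 than in batch 1, and Aza lay below both.

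CAMK1D differed in level between the KO clones but fell in each. F4 went from 41.6 CPM in DMSO to 14.4 CPM, and A12 from 22.2 and 22.5 CPM to 6.26 CPM (log2 -1.64, SE 0.11, adjusted p = 2.29e-10). THRB was a low gene with the same pattern: 7.67 CPM in DMSO and 2.52 CPM in Aza in F4, and 4.53 and 4.30 CPM against 1.43 CPM in A12 (log2 -1.63, SE 0.27, adjusted p = 1.44e-04). SYNE2 went from 17.9 to 7.29 CPM in F4 and from 25.4 and 21.6 to 9.19 CPM in A12 (log2 -1.62, SE 0.20, adjusted p = 1.45e-05). In all 3 genes no treated library reached the lowest vehicle library of its own clone.

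The WT clones showed the same picture. CUX1, THRB, NLGN1, a neuronal adhesion protein of synapses, HDAC4, MAD1L1 and CAMK1D fell most, and CDH23, ITGA9, PHACTR1, BACH1 and RUNX1 rose. Of the 302 genes 178 were called lower and 5 higher, where 9.04% of all genes tested were lower and 9.26% higher, and 11.7% and 13.1% of the shorter genes. The median log2 change was -0.50, against 0.01 in the shorter genes, and 33 fell by 1 log2 unit or more, where 1.19% of all genes tested did. Without either clone 155 to 159 were called lower. With the failed KO library in the shared model, 113 were.

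CUX1 had 61.9 and 64.3 CPM in DMSO in A7 and C4 and 19.6 and 16.7 CPM in Aza (log2 -1.80, SE 0.09, adjusted p = 1.47e-12). HDAC4 went from 17.1 and 17.5 CPM to 5.25 and 5.03 CPM (log2 -1.75, SE 0.11, adjusted p = 6.19e-11). NLGN1 (chromosome 3, 173114074 to 174004434) went from 26.1 and 27.4 CPM to 7.97 and 7.53 CPM (log2 -1.78, SE 0.17, adjusted p = 5.22e-07). The treated libraries lay far below the vehicle libraries in each of these genes. In KO, NLGN1 had 21.3 CPM in DMSO and 8.83 CPM in Aza in F4, and 12.0 and 12.7 against 3.90 CPM in A12. SYNE2 fell in WT as well, from 16.0 and 14.0 CPM to 9.35 and 6.94 CPM (log2 -0.89, SE 0.19, adjusted p = 0.00319). The difference between its changes in KO and WT did not pass the test (adjusted p = 1).

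Of the long genes 159, or 52.6%, were called lower in both genotypes at 72 h, against 5.91% of all genes tested and 7.85% of the shorter genes. The KO and WT comparisons share no library but share 1 model. Another 12 were called lower in KO alone, among them the fragile site gene IMMP2L, and 19 in WT alone, among them the phosphodiesterase PDE4D. A call in 1 genotype only is no difference between genotypes: the test of the difference itself called 0 of the 302 by edgeR and 0 by DESeq2. At an unadjusted p under 0.05 by edgeR there were 16, against 631 of all 18391 genes tested. The median difference was 0.03 on the log2 scale, and 0 of all 18391 genes were called (0.0% in either direction). Higher in both genotypes were BACH1, CDH23, ITGA9 and RUNX1, and 104 genes were called in neither.

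The fall was graded by span, and it did not begin at 300 kb. In KO the median log2 change was 0.13 for coding genes under 10 kb, 0.11 from 10 to 30 kb, 0.01 from 30 to 100 kb, -0.15 from 100 to 200 kb and -0.28 from 200 to 300 kb. Among the long genes it was -0.38 from 300 to 400 kb, -0.58 from 400 to 500 kb, -0.62 from 500 to 1000 kb and -0.71 above 1000 kb. The WT medians ran from 0.10 under 10 kb to -0.30 at 200 to 300 kb, and then -0.44, -0.65, -0.63 and -0.81 in the 4 long classes. In WT the 400 to 500 kb and 500 to 1000 kb classes were thus about level. Called lower in KO were 69 of 135, 49 of 77, 48 of 79 and 5 of 11 genes in the 4 classes, and in WT 76, 49, 47 and 6. These are 51.1%, 63.6%, 60.8% and 45.5% in KO and 56.3%, 63.6%, 59.5% and 54.5% in WT. Of the genes of 200 to 300 kb 47.0% were called lower in KO and 49.4% in WT. Of all genes tested 8.47% and 9.04% were. Called higher were 4, 2, 0 and 1 in KO and 1, 2, 1 and 1 in WT, against 11.6% and 9.26% of all genes tested. Over the 302 genes the rank correlation (Spearman) of span with the change was -0.18 in KO and -0.21 in WT. Over the 10643 coding genes, long and shorter together, it was -0.39 and -0.41. These are descriptions across genes, which share libraries and are not independent.

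**Figure D2:**
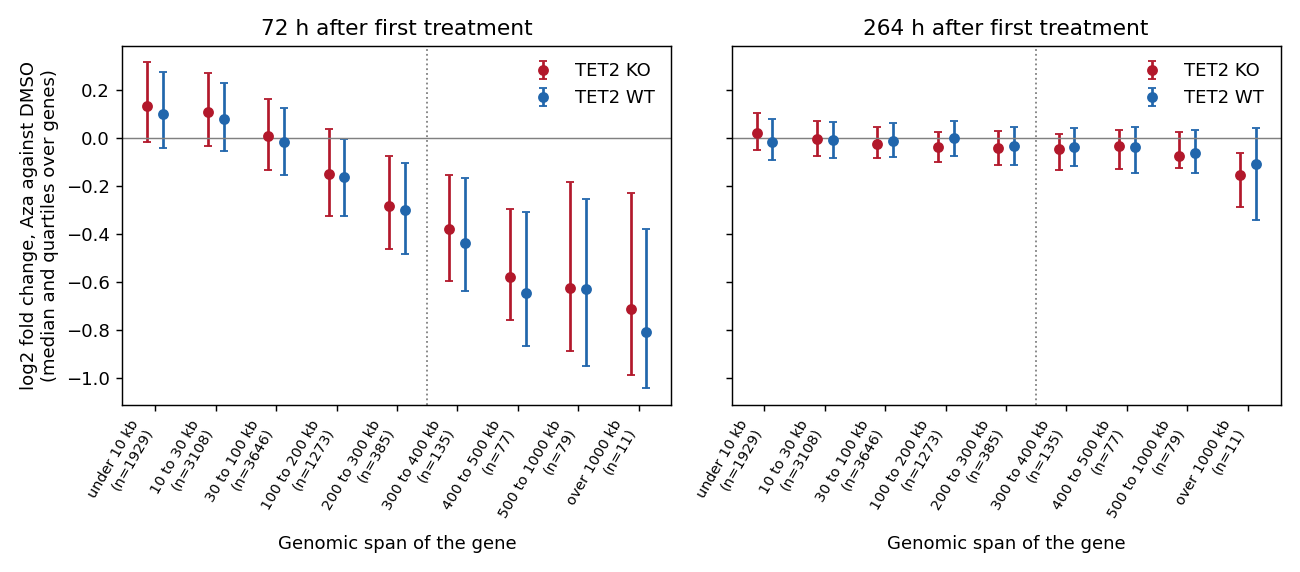
Median log2 change in Aza against DMSO by class of gene span (horizontal axis, kb) for KO and WT at 72 h and 264 h. At 72 h the medians go from 0.13 (KO) and 0.10 (WT) under 10 kb to -0.71 and -0.81 above 1000 kb, and at 264 h they stay between -0.16 and 0.02.

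In many long genes the annotated transcripts are shorter than the gene. Within the set the median span of the annotated transcripts ordered the changes more closely than the span of the gene. Of each gene, the median span of its coding transcripts in GENCODE release 29 was taken. Its rank correlation with the change was -0.39 in both genotypes, over 302 genes that share the same libraries. With the longest coding transcript it was -0.31 in KO and -0.33 in WT, and with the shortest -0.24 and -0.22. Gene span in release 29 gave -0.21 and -0.25. In WT the shortest transcript thus ordered the changes about as closely as gene span. In KO, the 13 genes with a median transcript of at most 50 kb had a median log2 change of -0.05, and the 14 from 50 to 100 kb one of -0.12. The 31 from 100 to 200 kb had -0.27, the 65 from 200 to 300 kb -0.35, the 82 from 300 to 400 kb -0.53 and the 97 above 400 kb -0.70. In WT the 6 medians were 0.04, -0.17, -0.30, -0.37, -0.53 and -0.75. RUNX1 is an example: its row spans 1217 kb, but its median coding transcript spans 101 kb, and it rose. BACH1 (437 kb against 47.0 kb) and CD36 (310 kb against 35.9 kb) were also called higher, CD36 in KO only. Some genes with short transcripts fell as well, such as TCF12, a helix-loop-helix factor with a median transcript of 69.0 kb, in both genotypes (-0.52 and -0.54). Which transcript the cells used was not measured, since counts are per gene.

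**Figure D3:**
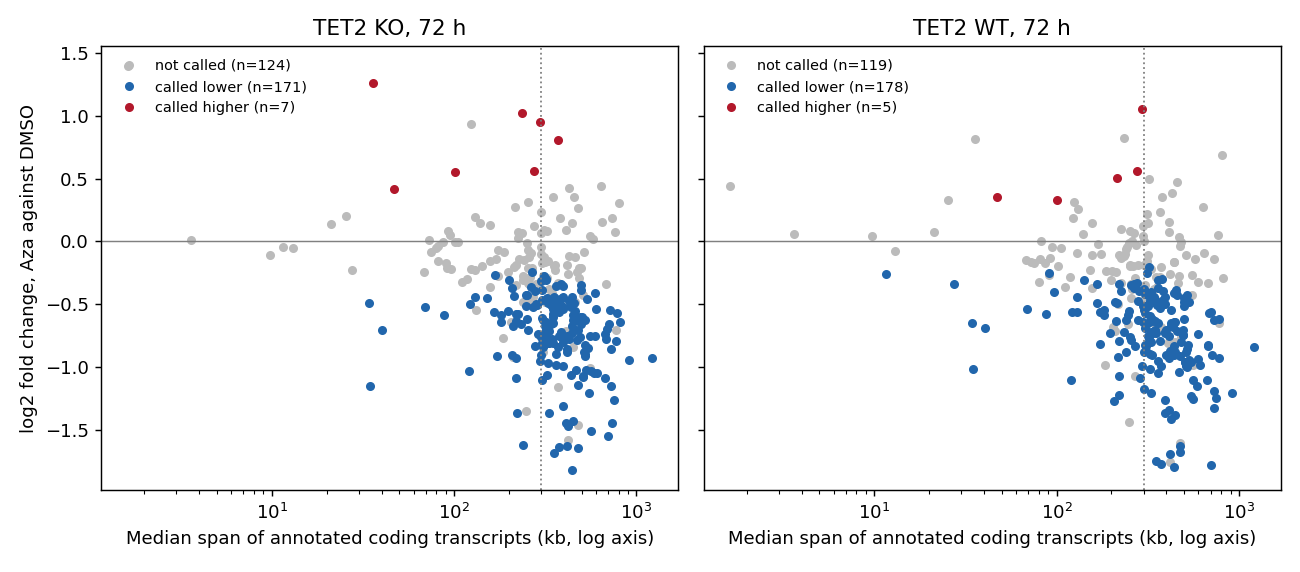
log2 change in Aza against DMSO at 72 h (vertical axis) of each of the 302 genes against the median span of its annotated coding transcripts (horizontal axis, kb, log scale), in KO and WT, with called genes in colour. Genes with transcripts of at most 50 kb centre near 0 (medians -0.05 and 0.04), and those above 400 kb at -0.70 and -0.75.

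Exon length and level ordered the genes less closely than the median transcript span did, and level about as closely as gene span. The rank correlation of the change with exonic length was -0.11 in KO and -0.00 in WT, and with mean CPM -0.23 and -0.22. The call depended on level: of the 151 genes at or above the median of 20.5 CPM, 109 were called lower in KO and 117 in WT, and of the 151 below it 62 and 61. The median changes of these 2 sets were -0.54 and -0.43 in KO and -0.54 and -0.40 in WT.

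The kit marks strand, but the counting command sets no strand option, so reads over exons shared with another gene cannot be told apart. In 170 of the 302 genes no exonic base is shared with another annotated gene on either strand, and of these 108 were called lower in KO and 105 in WT, 99 of them in both. Their medians were -0.55 in both genotypes. In 52 genes 5% or more of the exonic bases are shared, and 23 and 25 of those were called lower. Of the 4 genes higher in both genotypes, CDH23 (20.2%), BACH1 (17.8%) and ITGA9 (6.46%) share exonic bases with other genes, so their rise is uncertain in source, and RUNX1 shares none.

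By function, called falls occurred in each of the 9 classes. For comparison, 56.6% of all 302 long genes were called lower in KO and 58.9% in WT, and 8.47% and 9.04% of all genes tested. The classes come from lists written from general knowledge with these results known. Of the 302 genes 71 are in no list, and each of the others is in 1 class. The largest class, with 65 genes, holds kinases, phosphatases and regulators of small GTPases. In it 39 were called lower in KO and 42 in WT and 0 were called higher, with medians of -0.49 and -0.56. AGAP1, an activator of ARF GTPase hydrolysis, fell by 1.47 and 1.41 on the log2 scale in KO and WT. PTPRG, a receptor tyrosine phosphatase in a common fragile site, fell by 1.45 and 1.19. DOCK4, an exchange factor for RAC, fell by 1.14 and 1.63. PRKCA, protein kinase C alpha, fell by 1.08 and 0.96. PLCH1, a phospholipase C, was among those not called (0.07 and 0.10).

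Transcription and chromatin factors numbered 32, with 21 called lower and 2 higher in each genotype and medians of -0.55 and -0.60. Beside CUX1, HDAC4 and THRB, the falls included RUNX2, a bone and blood runt factor (-1.37 and -1.07), SMYD3, a lysine methyltransferase (-1.09 and -1.10), ARID1B, a subunit of the BAF chromatin remodeller (-0.84 and -0.83), FOXP1 (-0.78 and -0.71) and KMT2C, a histone H3 methyltransferase (-0.76 and -0.55). RUNX1 and BACH1 were the 2 that rose. SMYD3 (chromosome 1, 245912642 to 246670614) had 140, 157 and 163 CPM in KO vehicle and 70.2 and 63.9 CPM in Aza, and 60.6 and 73.0 against 30.5 and 31.7 CPM in WT. Its treated KO libraries thus overlapped the untreated WT range.

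The 46 genes of cytoskeleton, polarity and adhesion had 28 called lower and 2 higher in KO (median -0.55), and 26 and 3 in WT (-0.44). SYNE2 fell most in KO and NLGN1 in WT, and the falls included MYO16, an unconventional myosin (-1.51 and -1.26), ROBO2, a receptor for SLIT guidance cues (-1.05 and -0.99), and FMNL2, a formin (-0.91 and -0.82). UTRN, the autosomal relative of dystrophin, fell by 0.88 and 0.93. CDH23, a cadherin of sensory hair cells, and ITGA9, an integrin subunit, rose, as did PHACTR1, a regulator of actin and phosphatase 1, in WT. Of the 22 receptors, channels and transporters 9 were called lower in each genotype (-0.46 and -0.39). SLC39A11, a zinc transporter, fell by 1.43 and 1.38, and CD36, a scavenger receptor for fatty acids, was the 1 called higher, in KO.

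Among 21 genes of membrane traffic, autophagy and lipid handling 15 were called lower in KO and 16 in WT (medians -0.46 and -0.49), led by LRBA, which keeps CTLA4 on the cell surface (-1.26 and -1.24), and TRAPPC9, a subunit of a vesicle tethering complex (-1.16 and -1.33). The 22 metabolic, mitochondrial and glycosylation genes had 14 lower in each genotype (-0.60 and -0.53). FARS2, the mitochondrial phenylalanine tRNA ligase, fell by 1.07 and 0.99, GMDS, the first enzyme of GDP-fucose synthesis, by 1.05 and 1.15, and FTO, an RNA demethylase, by 0.66 and 0.72. XYLT1, which starts glycosaminoglycan chains, rose in KO (0.81, adjusted p = 0.0416). Of 8 RNA-binding genes 7 and 6 were lower (-0.63 and -0.66), of 8 genes listed under ubiquitin and folding 7 and 5 (-0.47 and -0.51), and of 7 genome maintenance genes 3 and 5 (-0.70 and -0.65). CPED1 stands in the ubiquitin list by placement only and rose in KO. The 71 genes in no list had the smallest medians, -0.32 and -0.38, with 28 and 34 lower.

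**Figure D4:**
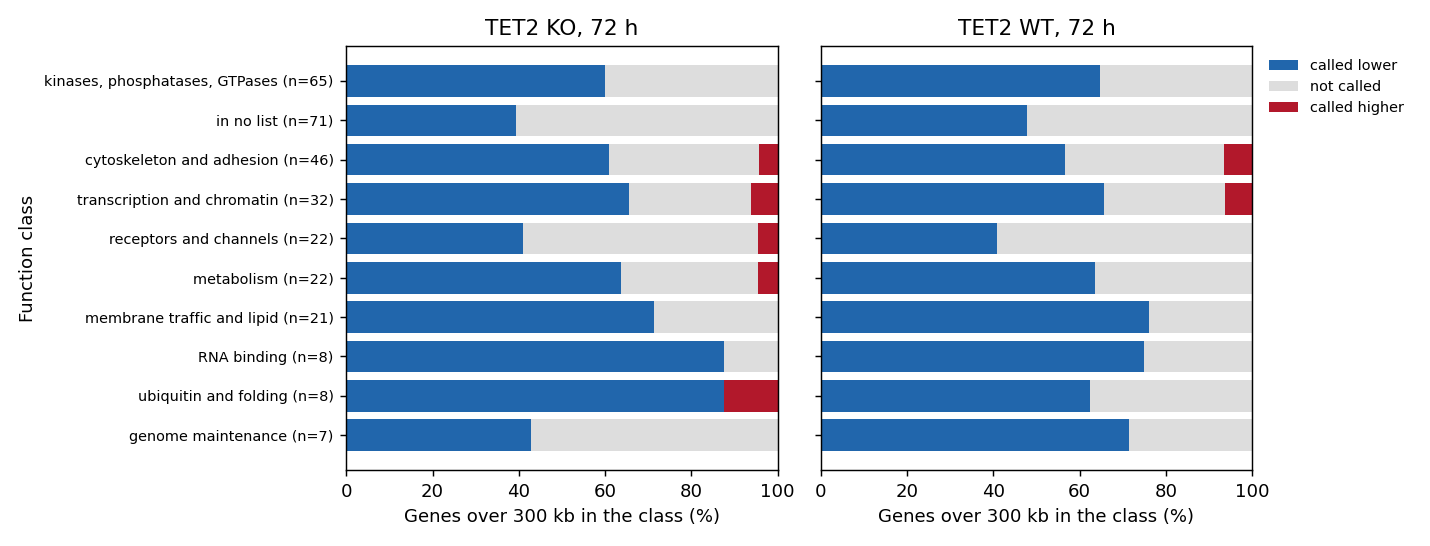
Share of the genes over 300 kb in each function class (horizontal axis, percent) called lower, not called and called higher at 72 h of Aza, in KO and WT. In the largest class 39 of 65 genes were called lower in KO and 42 in WT.

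Regulators of blood cells were part of the fall. Of 14 long genes known for roles in blood cells, 10 were called lower and 1 higher in KO and 11 and 1 in WT, with medians of -0.45 and -0.54. Of all 302 long genes 56.6% were lower in KO and 58.9% in WT, with medians of -0.48 and -0.50. Of all genes tested 8.47% and 9.04% were lower. The medians of the 14 thus lay near those of the long genes as a whole. MSI2, an RNA-binding protein that maintains blood stem cells (chromosome 17, 55333212 to 55762046), had 136, 168 and 175 CPM in KO vehicle and 63.4 and 69.4 CPM in Aza (log2 -1.31, SE 0.07, adjusted p = 6.56e-12). In WT it had 161 and 140 CPM in DMSO and 64.2 and 52.9 CPM in Aza (log2 -1.36, SE 0.07, adjusted p = 1.47e-12). The highest treated library, at 69.4 CPM, lay below the lowest vehicle library, at 136 CPM. SSBP2, a DNA-binding cofactor of LDB1 complexes, fell by 1.37 and 1.20, ARHGAP15, a RAC inactivator, by 1.00 and 1.26, DOCK2, a RAC activator of blood cells, by 0.63 and 0.64, and TCF12 by 0.52 and 0.54. ELMO1, a partner of DOCK proteins, fell by 0.39 and 0.45. TCF4 was called in WT only (-0.19 and -0.31), and SKAP2 (-0.24 and -0.30) in neither.

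RUNX1, a transcription factor of blood stem cells (chromosome 21, 36160098 to 37376965), was the blood regulator that went the other way. It had 153 CPM in F4 and 148 and 151 CPM in A12 in DMSO at 72 h, and 234 and 243 CPM in Aza (log2 0.56, SE 0.08, adjusted p = 1.24e-05). In WT it had 142 CPM in both vehicle libraries and 168 and 190 CPM in Aza (log2 0.33, SE 0.07, adjusted p = 0.00206). Treated and vehicle libraries did not overlap in either genotype. At 264 h it stood at 147 and 142 CPM in the KO libraries in Aza, within the 126 to 165 CPM of their vehicles, and at 141 and 145 CPM in the WT ones, against 136 and 140 CPM in DMSO, with no call.

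The other genes that rose did so by less or with more spread. BACH1, a heme-regulated repressor, had 50.3, 65.7 and 53.1 CPM in KO vehicle and 89.2 and 79.4 CPM in Aza (log2 0.42, SE 0.09, adjusted p = 0.00171), and rose by 0.35 in WT. CDH23 had 16.4, 12.0 and 13.7 CPM against 24.4 and 23.4 CPM in KO (log2 0.95, SE 0.15, adjusted p = 8.55e-05), and rose by 1.05 in WT. ITGA9 rose by 0.56 in each genotype. CD36 (chromosome 7, 79998891 to 80308593) had 8.59, 12.2 and 11.6 CPM in KO vehicle and 24.1 and 36.0 CPM in Aza (log2 1.26, SE 0.39, adjusted p = 0.0424). In WT its change of 0.81 did not pass the test (adjusted p = 0.145), and C4 stood above A7 in DMSO (33.3 against 14.7 CPM) and in Aza (60.1 against 24.9 CPM). CPED1 had 4.06, 7.72 and 6.53 CPM in KO vehicle and 8.40 and 15.1 CPM in Aza (log2 1.02, SE 0.29, adjusted p = 0.0216), with 0.82 in WT, not called (adjusted p = 0.072). In KO the lower treated library of CPED1, from F4, lay close to the highest vehicle library, from A12.

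The 11 genes longer than 1000 kb were mixed. ROBO2 (1743 kb; -1.05 and -0.99), TBC1D5, an inactivator of RAB7 (1288 kb; -1.03 and -1.10), the complement-like protein CSMD3 (1214 kb; -0.93 and -0.84), the cadherin CDH18 (1103 kb; -0.61 and -0.62) and the polarity protein PARD3B (1074 kb; -0.95 and -1.21) fell in both genotypes. PDE4D (1553 kb) was called in WT only (-0.12 and -0.43), and RUNX1 rose. PTPRD, the longest at 2298 kb and a receptor tyrosine phosphatase, had 28.5, 41.4 and 35.8 CPM in KO vehicle and 11.2 and 14.0 CPM in Aza, and 28.4 and 9.23 against 8.42 and 2.46 CPM in WT. Each clone's treated library was lower than its vehicle. The change of -1.58 in KO did not pass the test, however (SE 0.55, adjusted p = 0.0677), nor did -1.75 in WT (adjusted p = 0.0647). ANKS1B (-0.71 and -0.81), SGCZ (0.30 and 0.69) and WWOX (-0.34 and -0.33) were not called either. Of 6 long genes in common fragile sites, 2 were called lower in each genotype, PTPRG in both, IMMP2L in KO (-0.64) and PDE4D in WT. Among all 302 long genes 56.6% were called lower in KO and 58.9% in WT, and among all genes tested 8.47% and 9.04%. WWOX, RORA (0.20 and -0.09) and NBEA (0.19 and -0.14) were not called.

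Clone by clone, the fall at 72 h was present in all 4. Here the log2 CPM in Aza was compared with that in DMSO of the same clone, with 1 library on each side and so no test. The median over the 302 genes was -0.50 in A12, -0.51 in A7 and -0.49 in C4 with vehicles of the same batch, and 269, 266 and 262 genes were below 0. In F4, set against its batch 2 vehicle, the median was -0.32 with 223 genes below 0. A12 against its own batch 2 vehicle gave -0.41 and 248. The batch 2 vehicle of A12 differed from the batch 1 vehicle by a median of -0.10 at 72 h, so the smaller median of F4 and the batch cannot be told apart. The shorter genes' medians were 0.00 to 0.03 in the 4 clones. Below 0 in all 4 clones were 208 genes, 68.9%, where 18.5% of all genes tested and 19.9% of the shorter genes were, and above 0 in all 4 were 15, 4.97%, against 21.3% and 25.2%.

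Single genes differed between clones within this pattern. CUX1 changed by -1.84 in F4, -1.69 in A12, -1.66 in A7 and -1.94 in C4, and HDAC4 by -1.67, -1.77, -1.69 and -1.79. MAD1L1 changed by -2.20, -1.63, -1.44 and -1.96. The F4 value rests on the batch 2 vehicle, and against its own batch 2 vehicle A12 gave -1.95. SYNE2 changed by -1.29 and -1.46 in the KO clones and by -0.77 and -1.01 in the WT clones, a difference that did not pass its test as given above. The F4 value of SYNE2 rests on the batch 2 vehicle too. In DMSO at 264 h SYNE2 had 13.3 CPM in the batch 2 library of F4, against 24.9 to 31.1 CPM in the other KO libraries. Its model change of -1.62 in KO, a larger fall than in either clone, includes a batch term. RUNX1 changed by 0.61 and 0.71 in the KO clones and by 0.24 and 0.42 in the WT clones, and CD36 by 1.48 and 1.55 against 0.76 and 0.85. Neither difference passed the test (adjusted p = 1 for both).

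**Figure D5:**
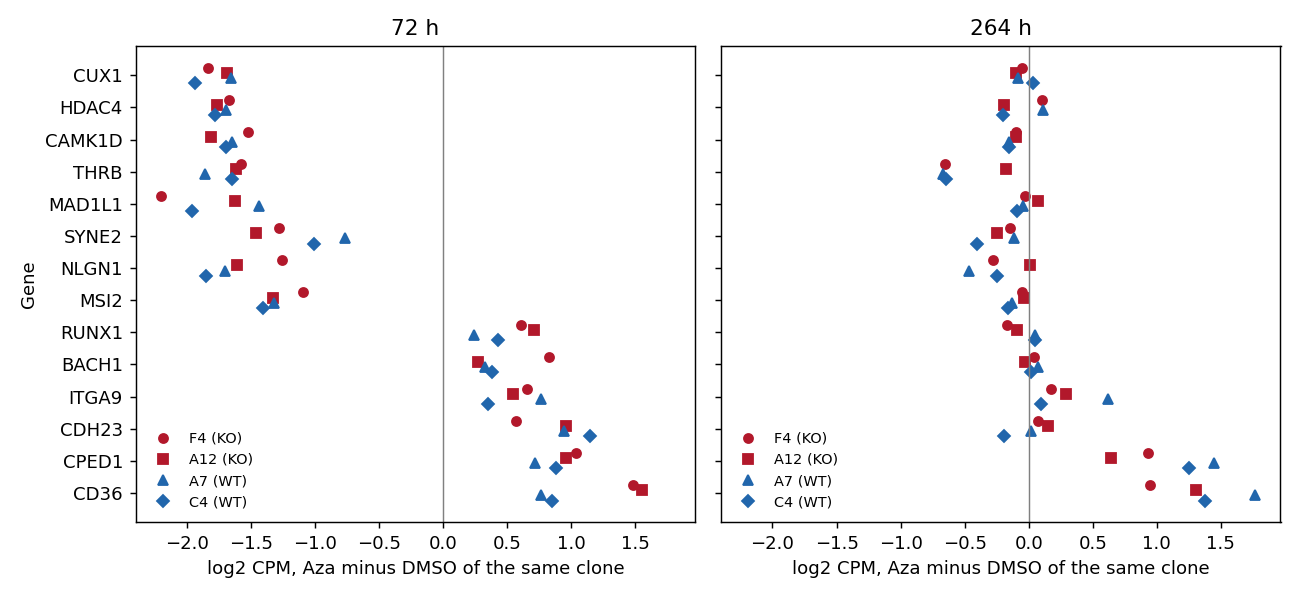
log2 CPM in Aza minus that in DMSO of the same clone (horizontal axis) for 14 genes at 72 h and 264 h, with 1 symbol per clone, circles and squares for KO and triangles and diamonds for WT. At 72 h CUX1 lies between -1.94 and -1.66 in the 4 clones, and at 264 h between -0.10 and 0.03.

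At 264 h the long genes were back near their vehicle level. CUX1 had 76.5 and 84.4 CPM in Aza in F4 and A12, against 79.1 and 90.6 CPM in batch 1 DMSO and 69.9 and 79.4 CPM in batch 2 DMSO. In A7 and C4 it had 69.5 and 72.1 CPM in Aza and 73.4 and 70.6 CPM in DMSO. The treated values lay within the vehicle range in KO, and in WT they straddled its lower end.

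In KO 0 of the 302 genes were called at 264 h by edgeR's quasi-likelihood test, where 0.0163% of all genes tested were called lower and 0.0816% higher. At an unadjusted p under 0.05 there were 28, against 1188 of all 18391 genes tested, and DESeq2 called 1, higher. The median was -0.06, against -0.01 in the shorter genes and -0.01 in all genes tested. THRB had 5.59 and 2.71 CPM in Aza and 8.82, 3.07, 10.1 and 3.50 CPM in DMSO in F4 and A12 (log2 -0.55, adjusted p = 0.658), below the vehicle of the same clone in each. The largest positive values were those of HBG2 (2.92, adjusted p = 0.274), CD36 (1.15, adjusted p = 0.562) and CPED1 (0.70, adjusted p = 0.648), none of them called.

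In WT 4 genes were called lower at 264 h and 1 higher, where 0.136% of all genes tested were lower and 0.364% higher. FMNL2 had 46.0 and 39.6 CPM in DMSO and 34.0 and 26.8 CPM in Aza (log2 -0.50, SE 0.11, adjusted p = 0.0362). PLCH1 had 119 and 100.2 CPM against 82.6 and 74.7 CPM (log2 -0.47, SE 0.09, adjusted p = 0.011). UTRN had 138 and 120 CPM against 99.2 and 95.2 CPM (log2 -0.40, SE 0.07, adjusted p = 0.00509). In these 3 genes the vehicle and treated libraries did not overlap. COL25A1, a membrane-bound collagen, fell by 0.29 (adjusted p = 0.0463), and MYO1D, an unconventional myosin, rose by 0.27 (adjusted p = 0.0463) from 77.2 CPM in both vehicle libraries to 96.1 and 89.9 CPM. MYO1D had fallen at 72 h, by 0.49 in KO and 0.47 in WT. CD36 (1.57, adjusted p = 0.104) and CPED1 (1.37, adjusted p = 0.0589) were higher in each WT clone without a call: CPED1 went from 3.69 to 10.2 CPM in A7 and from 3.58 to 8.63 CPM in C4. These calls are few and depend on the model: 0 are called without the clone term, and 13 are lower and 6 higher when the WT pre-treatment libraries are left out.

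The response at 264 h was also tested against that at 72 h. The response to Aza was called different at 264 h from that at 72 h, in the upward direction, for 141 long genes in KO and 130 in WT, and in the downward direction for 4 and 3. Of all genes tested 5.48% went up and 7.67% down in KO, and 4.0% up and 2.83% down in WT. Since the 72 h libraries enter both, this count is not independent of the fall at 72 h: 139 of the 171 KO genes and 129 of the 178 WT genes called lower at 72 h are among them. The 159 genes called lower in both genotypes had medians of -0.70 in KO and -0.73 in WT at 72 h, and of -0.05 and -0.05 at 264 h, with ranges of -0.55 to 0.29 in KO and -0.66 to 0.40 in WT. Since these genes were chosen by their 72 h calls, their 72 h medians are low by that choice. The lowest of them at 264 h was THRB in both genotypes. Of the 159, 43 were below the vehicle in all 4 clones at 264 h and 11 above it, among them TBC1D5, DOCK2 and MYO1D.

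The small negative median at 264 h depended on the vehicle batch in KO. The median per clone was -0.04 in F4, -0.06 in A12, -0.05 in A7 and -0.05 in C4 against batch 1 DMSO, with 189, 197, 183 and 191 of the 302 genes below 0. Against batch 2 DMSO it was 0.05 in F4 and 0.04 in A12. Below 0 in all 4 clones with batch 1 vehicles were 82 genes, 27.2%, where 12.1% of all genes tested and 15.2% of the shorter genes were, and above 0 in all 4 were 28, 9.27%, against 11.2% and 12.2%. By span class the medians at 264 h were -0.05, -0.03, -0.07 and -0.16 in KO and -0.04, -0.04, -0.06 and -0.11 in WT.

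In DMSO alone the long genes moved little. Between 72 h and 264 h in KO 15 were called higher and 3 lower, where 2.74% of all genes tested were higher and 1.94% lower. The higher ones included MAD1L1 and HDAC4, each by 0.30, and PLCL1, a phospholipase-like protein, by 0.80, and the ubiquitin ligase MARCHF1 fell by 0.64. In WT 0 were called by edgeR, where 0.0% of all genes were lower and 0.00544% higher. At an unadjusted p under 0.05 there were 33, against 1511 of all 18391 genes tested.

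Few long genes were called different between the genotypes before treatment or in DMSO at 264 h. Before treatment 301 were tested on 2 libraries against 2, and 0 were called by edgeR, where 0.0121% of all genes tested were called lower in KO and 0.0423% higher. At an unadjusted p under 0.05 there were 48, against 1322 of all 16560 genes tested. The median log2 difference of KO from WT was 0.05 in the long genes and -0.0005 in all genes tested. DESeq2 called 5 lower and 11 higher, with no share over all genes to set beside them. In DMSO at 264 h in batch 1, 300 were tested and 2 were called higher in KO, where 0.135% of all genes tested were higher and 0.0735% lower. By the same test 63 had an unadjusted p under 0.05, against 1827 of all 16333 genes tested. The median log2 difference was 0.08 in the long genes and -0.002 in all genes tested. SMYD3 had 137 and 154 CPM in F4 and A12 against 58.5 and 66.0 CPM in A7 and C4 (log2 1.24, SE 0.10, adjusted p = 0.0286). OSBPL10, a sterol-binding protein, had 10.5 CPM in both KO libraries against 3.32 and 3.44 CPM (log2 1.64, SE 0.16, adjusted p = 0.0457). The genotypes did not overlap in either gene. Both were also higher in the KO libraries before treatment, at 141 and 152 against 89.1 and 53.2 CPM for SMYD3 and at 8.55 and 5.94 against 1.62 and 2.01 CPM for OSBPL10, without a call. The difference between genotypes in the response to Aza at 264 h called 0 of the 302 (0.0% of all genes in either direction), and 0 by DESeq2. At an unadjusted p under 0.05 by edgeR there were 3, against 571 of all 18391 genes tested.

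Genes for the machinery that carries polymerase through genes were called about as often in the upward direction as all genes tested. Of 55 tested genes for elongation factors, topoisomerases and related proteins, 2 were called lower and 7 higher in KO at 72 h, with a median of 0.02, and 0 and 7 in WT, also with 0.02. Of all genes tested 11.6% were called higher in KO and 9.26% in WT, and 8.47% and 9.04% lower. Of the 55 genes 25 in KO and 23 in WT had a change below 0. In KO HEXIM1, an inhibitor of the elongation kinase P-TEFb, rose by 0.54, ELL2, a subunit of elongation complexes, by 0.37, POLR2A, the largest subunit of RNA polymerase II, by 0.35, and CCNT1, the cyclin of P-TEFb, by 0.34. In WT HEXIM1 rose by 0.65, POLR2A by 0.50, CCNK by 0.29 and PAF1 by 0.28. SETD2, a histone methyltransferase that travels with the polymerase, fell in KO by 0.32 and was not called in WT (-0.12). The other gene called lower in KO was DNMT1 (-0.21, and -0.12 in WT without a call). It is a DNA methyltransferase that the list also holds, and no elongation factor. The topoisomerases TOP1 (0.02 and 0.10), TOP2A (0.08 and -0.09) and TOP2B (0.02 and 0.03) were not called. At 264 h 0 of the 55 were called in KO by edgeR, and ELL2 alone was called in WT (0.44), where 0.364% of all genes tested were higher. At an unadjusted p under 0.05 there were 4 of the 55 in KO, against 1188 of all 18391 genes tested.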

How the data were processed

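RNA of 26 libraries was sequenced after an Illumina TruSeq stranded mRNA preparation, per the labels' protocols. The deposited table holds raw read counts per gene on GENCODE release 19 (hg19), and per the file headers featureCounts made it with no strand option. The submitters' processing notes name STAR 2.6.1d and featureCounts 1.6.2, beside DESeq2, FastQC and cutadapt. Counts were scaled by TMM, filtered by expression and fitted with edgeR 4.0.16 (limma 3.58.1, R 4.3.3) in 1 quasi-likelihood model of 25 libraries and 18391 genes, with 11 group means, clone within genotype and batch. KO against WT was fitted on 2 against 2 libraries, with 16560 genes before treatment and 16333 in DMSO at 264 h. P-values were adjusted by Benjamini-Hochberg over all genes tested, and a call is an adjusted p under 0.05. All 302 genes were tested in the shared model, 301 before treatment and 300 in DMSO at 264 h. Clone values are log2 CPM with a prior count of 2. The fit was tested on simulated data. DESeq2 1.42.0 and other settings were alternatives.

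Clone numbers come from the labels. Libraries of the same clone deviated together after treatment, with correlations of 0.549 to 0.609 between KO conditions and 0.458 to 0.516 between WT conditions. The WT libraries labelled as pre-treatment correlated at -0.514 to -0.474 with the later libraries of the same clone.

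The genes and lists were chosen with earlier results of these data known. Named by rule were the 6 largest called falls and rises per comparison, all genes over 1000 kb, the fragile site and blood regulator lists, genes called between genotypes, genes at the limits of the choice, and up to 4 called elongation genes per 72 h comparison. Other genes given as examples were chosen after their values were seen. Values of 1 gene that the rule names are not reported here. Transcript spans are from GENCODE release 29, matched by gene.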

Additional observations from a re-analysis of the deposited data

How the results depend on the processing

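In the 17 other settings run for each comparison with Aza, the median log2 change of the long genes ran from -0.63 to -0.33 in KO and from -0.64 to -0.36 in WT at 72 h, and from -0.08 to 0.00 and from -0.07 to -0.04 at 264 h. The KO median at 264 h was above 0 in 1 of these settings, with the failed library (0.0018). No named gene changed direction. In WT at 264 h the balance of calls turned from 4 lower and 1 higher to 1 and 2 without clone A7 and to 5 and 6 at a limit of 200 kb. Counts of calls moved more. In KO at 72 h, with the failed library 92 were lower; without either clone in turn 50 to 133 were lower and 0 to 2 higher; batch 1 alone gave 3 higher. A limit of 200 kb gave 352 lower and 18 higher, and one of 500 kb 53 and 1. In WT at 72 h, the failed library gave 113 lower and 1 higher; without either clone 155 to 159 were lower and 3 to 7 higher; the libraries of the comparison alone and no low-count filter gave 8 higher each. Limits of 200 and 500 kb gave 368 lower and 15 higher, and 53 and 2. Keeping only genes also over 300 kb in release 29 was chosen after seeing the data and moved no 72 h count by over 1.5 times.

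In KO at 264 h, DESeq2 gave 1 higher, exchanged WT pre-treatment clone labels 1 lower and 3 higher, leaving those libraries out 1 and 2, the comparison's libraries alone 7 and 2, no filter 3 and 4, and a limit of 200 kb 1 higher. In WT at 264 h, DESeq2 gave 3 higher, exchanged labels 12 lower and 6 higher, leaving them out 13 and 6, batch 1 alone 2 lower, the failed library 0 and 0, the comparison's libraries alone 29 and 11, no filter 16 and 4, a limit of 200 kb 6 higher and one of 500 kb 1 lower and 0 higher. Without either WT clone 1 to 2 were lower and 2 higher. For the genotype difference, no filter gave 1 higher at 72 h and 1 at 264 h. Before treatment, KO against WT gave 5 lower and 11 higher by DESeq2 and 8 and 23 with no filter, and 0 to 6 lower and 2 to 13 higher without each clone in turn. The causes were not tested.

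Without the replicate block, the clone term, KO at 72 h gave 3 higher and WT at 264 h 0 lower and 0 higher. Of the named genes, 8 of 36 in KO and 18 of 35 in WT at 72 h stayed called in every setting, and 0 of 5 in WT at 264 h. Each genotype has 2 clones, and of the long genes those near 2 CPM rest on the fewest reads. A higher level did not ensure a small SE: in KO at 72 h PTPRD and CD36 had larger SEs than THRB, a lower gene.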
